A study of Homo sapiens with 46 samples.

Results

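The replication-dependent histone genes of chromosome 6 were examined in RNA-seq counts from 46 libraries of DLD-1, an established adherent human colorectal adenocarcinoma line. The genes were all those on chromosome 6 of GRCh38 that start inside a fixed window around the histone clusters and whose symbol names an H1, H2A, H2B, H3 or H4 gene of the replication-dependent series. After 11 pseudogenes were left out, 55 genes of the 62756 in the count table met this rule. They comprised 6 H1, 12 H2A, 15 H2B, 10 H3 and 12 H4 genes. They span chr6:25723397-27893891. The rule uses position and symbol and no expression value, although it was set with earlier results of these data known.

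The untagged parental line (genotype WT) was set beside 3 lines in which an auxin-inducible degron sat at the N-terminal end of endogenous Lamin A/C (LAC), Lamin B1 (LB1) or Lamin B2 (LB2). Lamins are intermediate filament proteins under the inner nuclear membrane, and the degron leads to proteasomal breakdown of the tagged protein once the plant hormone auxin is present. Auxin at 1 mM was applied to all lines, parental included, and RNA was taken at 0, 16 and 96 h, so there were 12 groups. Each had 4 replicates except LB1 at 0 h and LB2 at 96 h, which had 3. A replicate was a separate well of a culture plate, so the p-values measure the spread between wells. Per the labels, auxin was dissolved in DMSO. Whether the 0 h wells received DMSO is not given there, nor is the number of clones behind each tagged line. The degron acts on protein, so RNA levels do not check it, and lamin protein was not analysed here.

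Replication-dependent histone genes supply the core and linker histones that package newly copied DNA. Their transcripts accumulate in S phase and are degraded when DNA synthesis stops. In place of a poly(A) tail they end in a conserved stem-loop, which binds the stem-loop binding protein (SLBP) and is cut with the help of the U7 small nuclear RNA. Total RNA libraries from which only ribosomal RNA is depleted, as here, keep such transcripts. Most of these genes lack introns and lie close together, often as pairs of an H2A and an H2B gene transcribed in opposite directions from a shared promoter region.

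The libraries held 479446 to 37309421 counts, and 6 held under 5000000, of which 5 were 0 h libraries. Levels are given as CPM, counts scaled to a common library size with the TMM factors of edgeR. Where no read was counted, up to 3 counts remain possible, equal to 6.26 CPM at the lowest depth and 0.0804 CPM at the highest. Of 10 colon epithelium markers, 8 had a median of at least 1 CPM, among them EPCAM and KRT8, while CDX1 reached at most 0.409 CPM and LGALS4 had a median of 0.321 and a highest library of 13.05. Immune markers summed to at most 0.927 CPM, fibroblast markers to at most 6.10 and endothelial markers to at most 17.5. The low-depth replicate 1 libraries of LAC at 0 h and LB2 at 0 h, and replicate 3 of LB2 at 16 h, stood apart from their groups in short noncoding RNAs. A fixed list of 8 such RNAs summed to 38160, 46330 and 35710 CPM in these libraries, against 5168 to 9114, 10040 to 17250 and 3722 to 7333 CPM in the other replicates. The same libraries departed from their groups in histone RNA, and the part of short RNA content in those departures was not tested.

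The promoter sequences held different motifs in different classes. The following stretches are the 120 bases before the annotated start of the most abundant member per kilobase in each class, and for contrast those of H1-1, a nearly silent H1 gene. They are written 5′ to 3′ on the gene's strand, from RefSeq on GRCh38.p14. Capitals mark 4 motifs searched on both strands, TATAAA (the TATA box), CCAAT (the CCAAT box), ATTTGCAT (the octamer) and AAACACA (the H1 box), and overlapping matches run together.
H1-4, chr6:26156209-26156328, plus strand: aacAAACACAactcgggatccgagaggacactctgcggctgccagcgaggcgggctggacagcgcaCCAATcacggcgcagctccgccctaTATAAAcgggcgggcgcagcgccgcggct
H1-1, chr6:26017788-26017907, minus strand: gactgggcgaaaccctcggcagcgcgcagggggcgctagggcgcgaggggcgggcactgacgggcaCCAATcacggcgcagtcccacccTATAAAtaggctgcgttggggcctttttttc
H2AC11, chr6:27132923-27133042, plus strand: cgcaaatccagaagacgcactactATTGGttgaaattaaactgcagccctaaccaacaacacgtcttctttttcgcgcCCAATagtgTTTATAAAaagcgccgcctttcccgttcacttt
H2BC12, chr6:27146856-27146975, minus strand: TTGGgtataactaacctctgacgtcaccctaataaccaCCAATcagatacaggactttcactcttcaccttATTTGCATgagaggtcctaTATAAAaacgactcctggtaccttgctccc
H3C2, chr6:26032100-26032219, minus strand: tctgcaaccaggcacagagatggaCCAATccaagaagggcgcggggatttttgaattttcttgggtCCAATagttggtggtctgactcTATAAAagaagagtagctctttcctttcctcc
H4C2, chr6:26027284-26027403, minus strand: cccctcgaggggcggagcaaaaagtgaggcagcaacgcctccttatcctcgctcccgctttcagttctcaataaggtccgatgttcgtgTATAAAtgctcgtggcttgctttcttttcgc

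Promoters of 50 of the 55 genes were found in the RefSeq table, and the motifs were counted in the 250 bases before each start. AAACACA was present before 6 of 6 H1 genes and before none of the other 44, against 4.818% of all 35116 promoters. ATTTGCAT was present before 9 of 11 H2A and 12 of 15 H2B genes and before no H1, H3 or H4 gene, against 1.632% of all promoters. CCAAT was found before all 6 H1, 11 H2A, 15 H2B and 8 H3 genes but before 3 of 10 H4 genes, against 32.01% of all promoters. TATAAA was found before 34 of the 50 (68.0%), against 10.72%. The windows of divergent pairs overlap, so paired genes share matches, and a match is a run of letters, not a shown binding site.
The nearly silent H1-1 carried the same CCAAT and TATAAA letters as the abundant H1-4, and its AAACACA lay upstream of the stretch shown. The capitals at the left edge of the H2BC12 stretch are the end of a reversed CCAAT cut by that edge.

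The 3′ stem-loop was searched in GENCODE release 29 transcripts of 53 members as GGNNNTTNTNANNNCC with 6 paired bases, G-T pairs allowed. It was found in 20 of them, 19 of which had enough counts to be tested, and in 180 of all 58676 genes (0.3068%). Where a transcript model lacks it, the search says only that these letters are not in that model. The commonest form, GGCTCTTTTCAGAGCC, occurred in 9 members. The examples below give the stem-loop in capitals with 5 bases on either side. They are shown because these are 4 genes with a called difference between groups and H4C2, the most abundant H4 gene per kilobase.
H2AC11: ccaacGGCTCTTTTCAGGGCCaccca
H4C2: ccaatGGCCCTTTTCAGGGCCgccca
H4C8: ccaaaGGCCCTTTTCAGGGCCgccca
H2BC5: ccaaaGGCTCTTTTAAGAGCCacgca
H4C11: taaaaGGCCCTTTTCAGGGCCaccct
The H4 genes shown share 1 stem-loop form, and that of H2AC11 differs from it and holds a G-T pair within the stem. The H2AC11 model runs 1761 bases past the stem-loop and that of H4C8 runs 1655, but those of H2BC5 and H4C11 end 39 and 6 bases after it.

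Of the 55 genes, 42 passed the low-count filter and were tested. The sum over all 55 was 4144 to 11960 CPM per library, with a median of 5896. Each class supplied a similar part of that sum, on average 17.6% from H1, 21.2% from H2A, 21.9% from H2B, 22.3% from H3 and 17.0% from H4. The H2B part varied most, from 8.14% to 29.7%.

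Within each class the levels per kilobase of counted length were led by 1 gene. H1-4 (chromosome 6, 26156329 to 26157115, plus strand, 1 exon), a linker histone, had a mean of 449 CPM (570.5 per kilobase), with a lowest library of 296, a median of 413 and a highest of 983. H2AC11 (27133043 to 27133535, plus strand, 1 exon) had a mean of 431 CPM (873 per kilobase) and a range of 248.9 to 676. H2BC12 (27146361 to 27146855, minus strand) had a mean of 371 CPM (750.2 per kilobase) and a range of 219.8 to 588. Its gene start lies 251 bases from that of H2AC12, a divergent neighbour.
H3C2 (26031589 to 26032099, minus strand) had a mean of 398 CPM (779 per kilobase) and a range of 228 to 783. H4C2 (26026896 to 26027283, minus strand) had a mean of 252 CPM (648 per kilobase) and a range of 172 to 622. For H1-4 and H4C2 the highest library was replicate 3 of LB2 at 16 h, the least deep of all. It was also the highest for H3C2.

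A minority of genes gave almost no counts in any library. H2AC1 and H2BC1, a divergent testis-linked pair 215 bases apart, had 0 counts in all 46 libraries. H4C7 had 1 count in all, H4C6 had 2, H3C4 had 3, H3C8 had 5, H2BC10 had 6 and H2BC3 had 7. The totals were 13 for H1-1, a testis-linked linker histone together with H1-6 at 39, and 46 for H1-5. H3C3 had 21 counts and H2AC7 had 102. Low counts need not mean absence here, because RN7SK, RPPH1, SCARNA2 and RN7SL2, abundant noncoding RNAs of every cell, were also listed at 0 in all libraries. H3C4 and H2AC7 share 96.6% and 85.3% of their bases with an unnamed gene on the same strand, so their reads could be split or dropped. Of the 12 untested genes with a GENCODE sequence, 10 had no run of 75 bases in common with another gene.

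**Figure D1:**
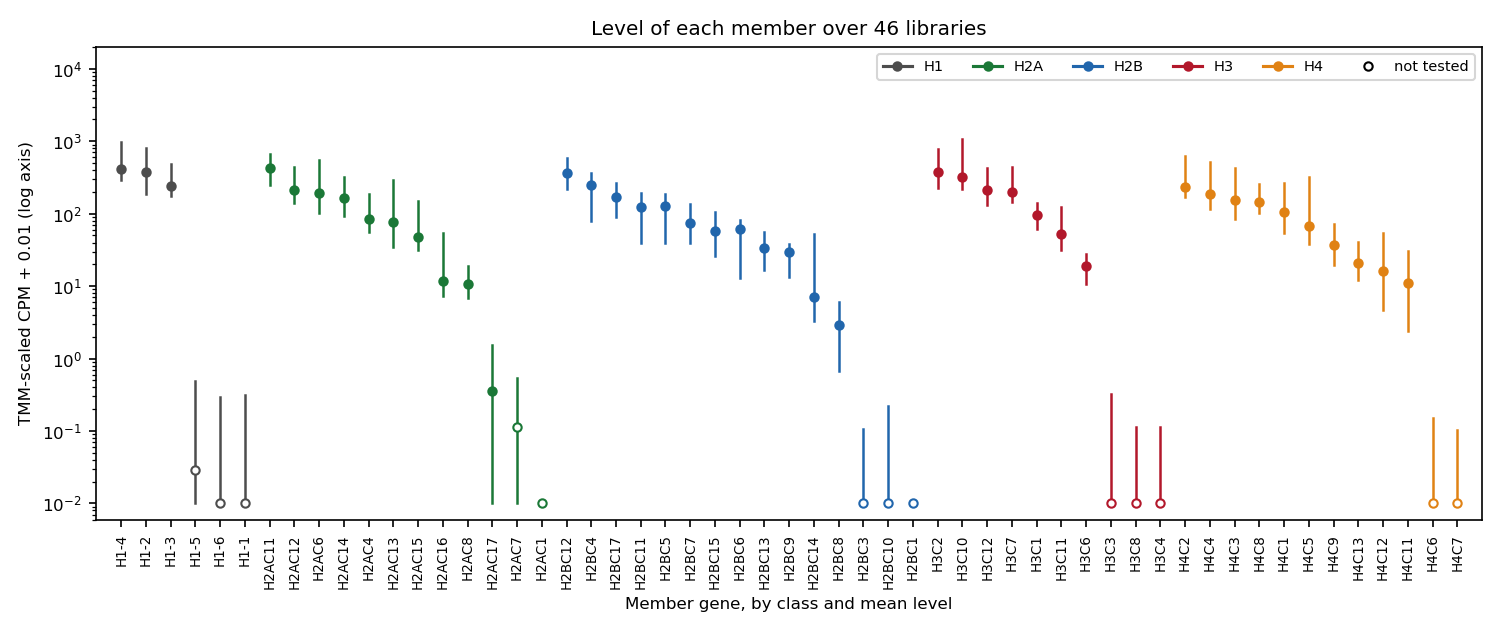
Level of each of the 55 genes over the 46 libraries, as the median (point) and the range (line) of TMM-scaled CPM plus 0.01 on a log axis, with classes in colour. Open points mark the 13 genes that did not pass the low-count filter, and these lie below 1 CPM while the leading gene of every class lies above 100.

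Position and level were described across 4 stretches of the region. The stretch at chr6:25723397-25727345 held 2 genes, and neither was tested. The stretch at chr6:26017032-26285638 held 32 genes, of which 22 were tested, and their mean levels summed to 3604 CPM. At chr6:27125897-27147562 there were 5 genes, all tested, that summed to 1187 CPM. At chr6:27807479-27893891 there were 16 genes, 15 of them tested, that summed to 1299 CPM.
Divergent partners did not always have like levels. H2BC4 and H2AC6, 219 bases apart, had means of 247 and 213 CPM. H2AC14 and H2BC14, 245 bases apart, had means of 174 and 8.28 CPM, and H2AC7 and H2BC7, 223 bases apart, had 0.147 and 76.6 CPM.

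Near-identical copies limit what can be said of some members. Of the 53 genes with a GENCODE sequence, 35 had no 75-base window in common with another gene. More than 50% of windows were shared in 9, among them H4C12 (100%), H2AC14 (82.4%), H4C11 (79.6%), H3C12 (60.7%), H2AC13 (60.1%) and H2BC12 (50.5%). H2AC17 overlaps H3C12 over 71.0% of its own bases. How the authors counted reads that fit several genes is not given in the sources used here, so the split of counts between such copies is uncertain. In bulk RNA, fewer cells in S phase and less histone RNA per cell cannot be told apart.

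Summed over all 55 genes, the parental line at 0 h was the lowest group, at 4637 ± 748 CPM (SD, n = 4). The libraries stood at 5747, 4144, 4245 and 4413 CPM for replicates 1 to 4. LB2 at 0 h stood at 7107 ± 966 CPM (SD, n = 4), with libraries at 8303, 6815, 5994 and 7316. All LB2 libraries lay above all parental libraries.
LB1 at 0 h had 6588 ± 729 CPM (SD, n = 3), also with no overlap with the parental line. LAC at 0 h had 5751 ± 1206 CPM (SD, n = 4), and 2 of its libraries, at 4861 and 4868, lay below the parental replicate at 5747. With auxin the parental sum was 5351 ± 519 CPM after 16 h (SD, n = 4) and 5549 ± 827 CPM after 96 h (SD, n = 4). LB2 stood at 7524 ± 3070 CPM at 16 h (SD, n = 4), a spread set by replicate 3 at 11960, and at 5997 ± 466 at 96 h (SD, n = 3).

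The H2B sum was low in 2 of the 3 libraries rich in short RNA. In LAC at 0 h it was 604 CPM in replicate 1, against 1485, 1084 and 1005 in the others, although replicate 1 had the highest sum over all classes, 7419 CPM. In LB2 at 0 h it was 727 CPM in replicate 1, against 1637, 1152 and 1409 in the others. In both groups replicate 1 was low for H2B and high for the total. In the third library, replicate 3 of LB2 at 16 h, the H2B sum was 1466 CPM, inside the range of its group (1441, 1643 and 1088), while the total was the highest of all.

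**Figure D2:**
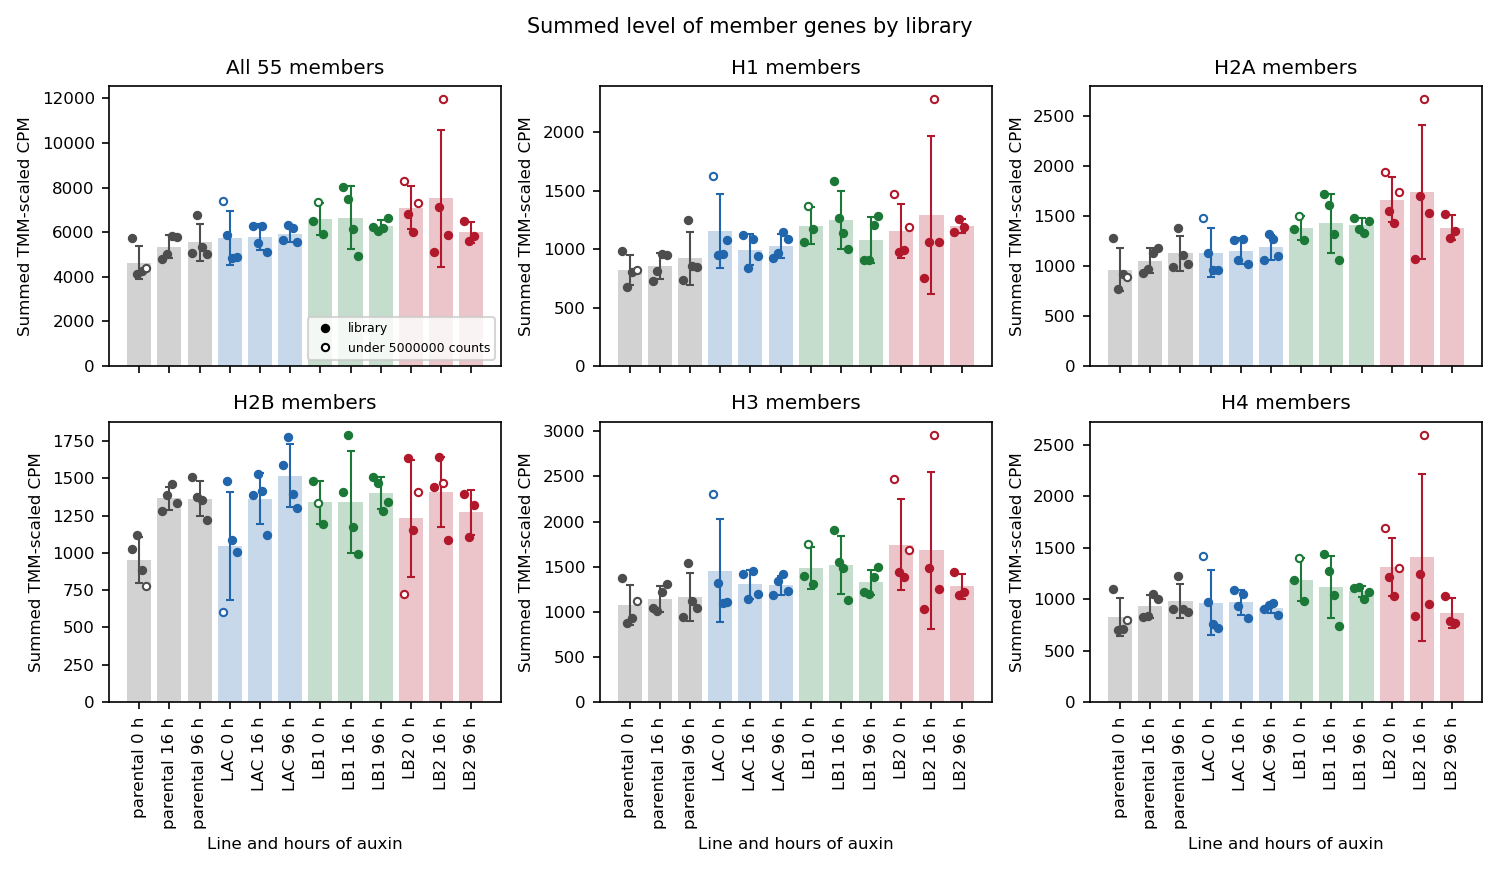
Sum of TMM-scaled CPM over all 55 genes and over each class, by line and hours of auxin. Bars are group means, error bars are SD and points are libraries (open under 5000000 counts), with the parental line at 0 h lowest in the total at 4637 and replicate 3 of LB2 at 16 h highest at 11960.

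Before auxin, the histone genes called higher in LB2 than in the parental line were of the H2A, H3 and H4 classes. At 0 h, 15 of the 42 tested genes were higher in LB2 and 0 lower by edgeR's quasi-likelihood test with a Benjamini-Hochberg adjusted p under 0.05, whereas 3.91% of all genes tested were called higher. The median log2 difference of the 42 was 0.60. The genes called were 7 of 10 H2A, 5 of 10 H4 and 3 of 7 H3 genes, with 0 of 12 H2B and 0 of 3 H1 genes. Replicates did not overlap, with LB2 higher, in 17 of the 42 genes, against 4.44% of all genes. Class medians of the log2 difference were 0.78 for H2A, 0.66 for H4, 0.63 for H3, 0.54 for H1 and 0.41 for H2B, so the uncalled classes also had positive medians. Whether the classes differ from each other was not tested. Replicate 1 of LB2 at 0 h, low for H2B as given above, is among these libraries. Its part in the absence of H2B calls was not tested.

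H2AC14 (27814302 to 27814777, minus strand, 1 exon), an H2A gene, was the most clearly called. It stood at 180.2, 225, 248 and 304 CPM in LB2 and at 151, 94.3, 122 and 134 in the parental line. The groups did not overlap, and the log2 difference was 0.94 ± 0.156 (standard error, SE) with an edgeR adjusted p of 3.34e-05. Because 82.4% of its windows are shared with other genes, this value may include reads from copies.
H2AC4 (26033092 to 26033618, minus strand) stood at 109, 107, 105 and 136 CPM in LB2 and at 92.9, 56.3, 60.1 and 56.6 in the parental line. Its log2 difference was 0.78 ± 0.166 (SE) with an edgeR adjusted p of 0.00126. H2AC12 (27147106 to 27147562, plus strand) stood at 329, 278, 223 and 269 CPM in LB2 and at 204.5, 143, 153 and 139 in the parental line. Every LB2 library exceeded every parental library for both genes, and H2AC12 differed by 0.78 ± 0.167 (SE) with an edgeR adjusted p of 0.00147.

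Among the other 12 genes called in LB2 at 0 h, log2 differences ran from 0.57 for H3C1 to 1.29 for H4C11. H3C2, the leading H3 gene, stood at 762, 426, 401 and 499 CPM in LB2 and at 345, 228, 262 and 312 in the parental line. The groups did not overlap, and its log2 difference was 0.86 ± 0.208 (SE) with an edgeR adjusted p of 0.00491. H2AC11 was called at a log2 difference of 0.71, but its lowest LB2 library, 425.5 CPM, lay below the highest parental library, 458 CPM. The genes H3C2, H2AC4, H4C8, H2AC12, H2AC14, H2AC15 and H3C12 kept their call in all 19 other settings and left-out libraries tried. Without the libraries under 5000000 counts, 13 genes were called.

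In LB1 at 0 h, 6 of 42 genes were higher and 0 lower than in the parental line by the same test, against 1.62% of all genes called higher, and the median log2 difference was 0.51. Replicates did not overlap, with LB1 higher, in 18 of the 42, against 7.55% of all genes. H3C12 (27890315 to 27893106, minus strand, 3 counted intervals), an H3 gene, stood at 244, 351 and 246 CPM in LB1 and at 216, 134, 151 and 165 in the parental line. It did not overlap between groups, with a log2 difference of 0.74 ± 0.177 (SE) and an edgeR adjusted p of 0.00569. H2AC4 stood at 99.2, 140.1 and 94.5 CPM in LB1, a log2 difference of 0.71 ± 0.178 (SE) with an edgeR adjusted p of 0.0095. H2BC15 stood at 64.0, 77.7 and 57.4 CPM in LB1 and at 39.2, 47.1, 42.5 and 25.9 in the parental line, a log2 difference of 0.74 ± 0.19 (SE) with an edgeR adjusted p of 0.0122. All 3 LB1 libraries exceeded the 4 parental libraries for both genes.
The other genes called were H2AC14, H4C3 and H2AC12. Replicate 2 of LB1 at 0 h, with 1452968 counts, was the highest library for H3C12, H2AC4 and H2BC15, and without it none of these 6 genes was called (edgeR adjusted p from 0.0754 for H2BC15 to 0.278 for H4C3) and 1 other of the 42 was. A fit of the compared groups alone called 24 histone genes in LB1 and 9 in LB2, the reverse of the order above. That fit filters genes anew, and its share of all genes called is not given here. The 2 lines were not tested against each other.

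In LAC at 0 h, 2 genes were higher than in the parental line and 1 lower, where 8.71% of all genes were called higher and 7.08% lower. The median log2 difference was 0.20, and 0.02 when scaled by library size only. H2BC6 (26172059 to 26184655, plus strand, 5 counted intervals) was lower, at 13.0, 44.6, 28.6 and 30.8 CPM in LAC and 47.4, 61.0, 46.5 and 48.3 in the parental line. The groups did not overlap, and the log2 difference was -0.74 ± 0.219 (SE) with an edgeR adjusted p of 0.0154. Without replicate 1 of LAC at 0 h it was -0.51, with an adjusted p of 0.0895 by the same edgeR test. Without replicate 2 of the parental line at 0 h it was -0.58, with an edgeR adjusted p of 0.101.
H3C2 was higher, at 718, 395, 351 and 374 CPM in LAC, a log2 difference of 0.68 ± 0.207 (SE) with an edgeR adjusted p of 0.0194. Without replicate 1 of LAC at 0 h it was 0.41, with an edgeR adjusted p of 0.142. Without replicate 3 of the parental line at 0 h it was 0.64, with an edgeR adjusted p of 0.0548. H2BC14 (27815022 to 27815489, plus strand) was higher, at 12.3, 10.7, 8.90 and 7.16 CPM in LAC and 4.75, 5.61, 4.13 and 6.28 in the parental line, a log2 difference of 0.88 ± 0.278 (SE) with an edgeR adjusted p of 0.0227. The groups did not overlap for H3C2 or H2BC14. The 3 comparisons at 0 h share the parental libraries, so they are not independent of each other. The changes from 0 h with auxin described below use the same 0 h libraries. Those changes and the differences at 0 h are therefore not independent either.

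**Figure D3:**
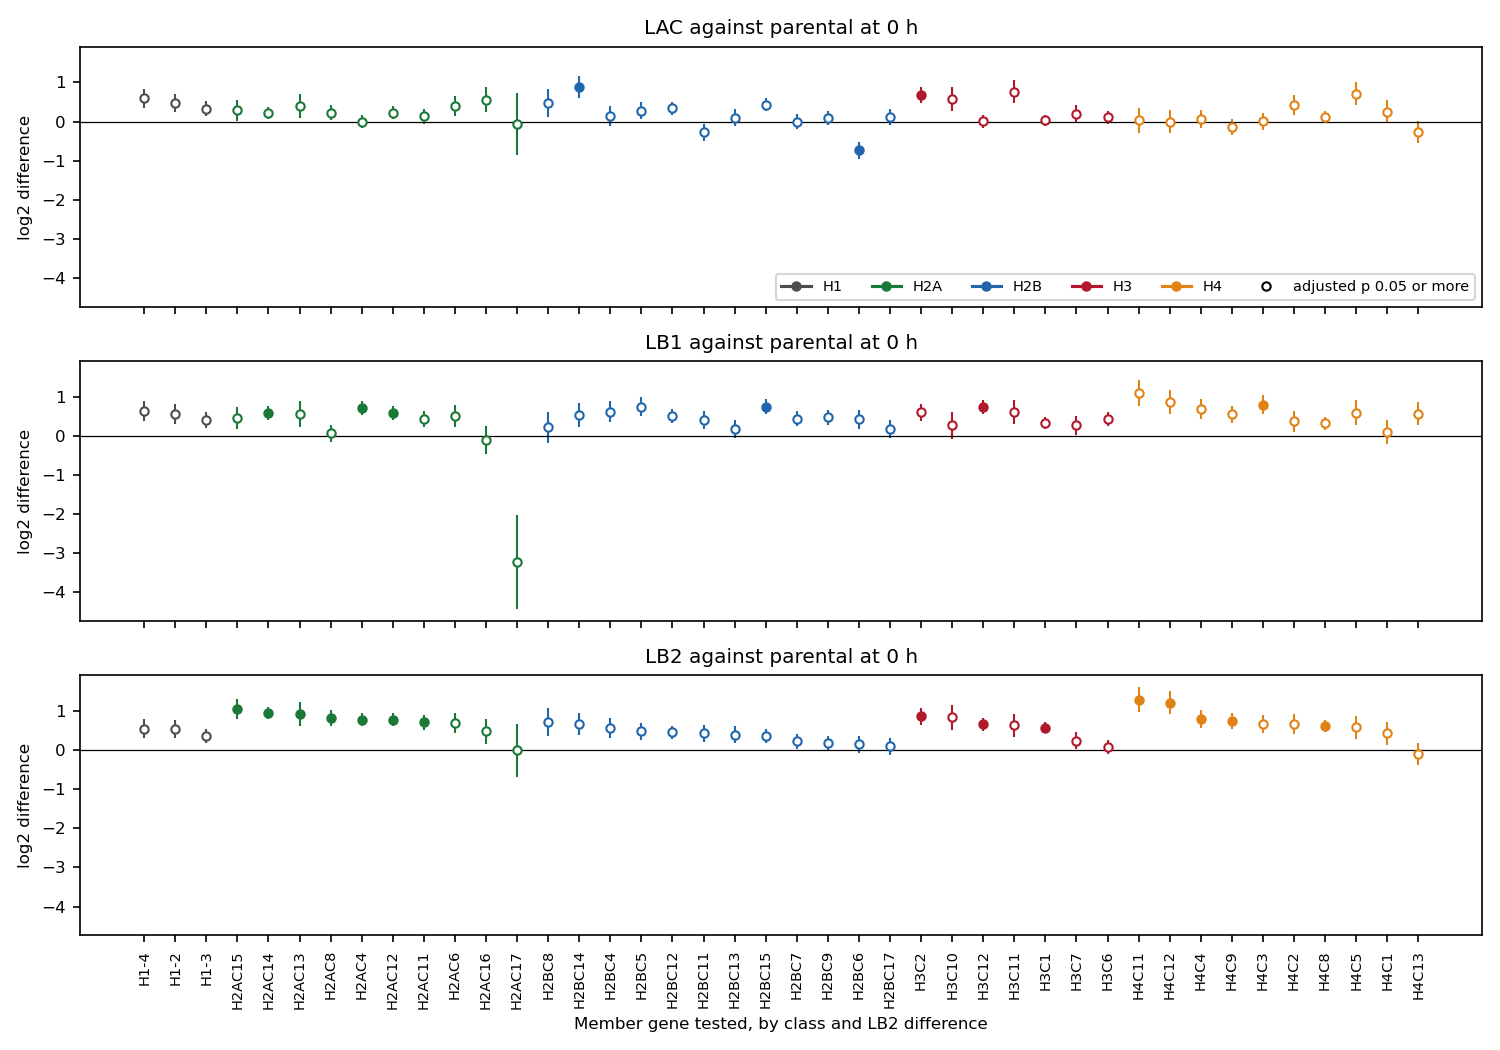
Log2 difference of each tagged line from the parental line at 0 h for the 42 tested genes, with SE as bars and filled points for an edgeR adjusted p under 0.05. In LB2, 15 genes are filled, all above 0, against 6 in LB1 and 3 in LAC; the low point for H2AC17 in LB1 is a gene with a mean of 0.419 CPM.

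Other genes of the same pathway were read beside these differences. In LB2 at 0 h, 4 of 38 S phase genes were higher and 0 lower than in the parental line, with a list median of 0.07. The 4 were PCNA, the sliding clamp of replicative polymerases, at a log2 difference of 0.74 ± 0.11 (SE), CCNA2 (cyclin A) at 0.56 ± 0.115, POLE2 (a polymerase epsilon subunit) at 0.69 ± 0.206 and MCM6 (part of the replicative helicase) at 0.32 ± 0.106. Of 15 tested replication-dependent histone genes outside chromosome 6, 3 were higher and 0 lower. These were H2AC20 at 0.69 ± 0.13 (SE), H2BC18 at 0.73 ± 0.191 and H2BC21 at 0.61 ± 0.177, while the list median was 0.48.
Of 20 genes of histone transcription and 3′ processing, LSM10 (a U7 particle subunit, 0.65) and CPSF2 (0.34) were higher and CSTF2T (-0.44) was lower in LB2. H2AZ2, a replacement H2A gene that is expressed outside S phase as well, went the other way, with a log2 difference of -0.47 ± 0.12 (SE). CDKN1A, the p21 inhibitor of cyclin-dependent kinases, stood at 32.8 CPM in LB2 and 78.5 in the parental line, a log2 difference of -1.32 ± 0.184 (SE). The 4 tested short noncoding RNAs had a median log2 difference of 0.65, with 0 called by edgeR.

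The same lists had another pattern in LAC at 0 h. There, 13 of 38 S phase genes were higher and 1 lower, with TK1 (thymidine kinase) at a log2 difference of 0.63 ± 0.143 (SE), and 7 of 18 histone chaperone genes were higher. In all, 3 of the 42 histone genes were called in either direction in that comparison, as given above. In LB1 at 0 h, 0 of 38 S phase genes were called by edgeR, 7 had an unadjusted p under 0.05, and DESeq2 called 1 and limma voom 3. CDKN1A was lower in LAC by 1.15 ± 0.179 (SE) on the log2 scale and in LB1 by 0.66 ± 0.195, against the same parental libraries. H2BC18 was higher in LB1 as well, by 0.68 ± 0.205 (SE). The differences between tagged lines in these lists were not tested.

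In the parental line, the share of histone genes called after auxin was close to that of all genes. At 16 h against 0 h, 2 of 42 genes, H2BC5 and H3C1, were higher and 0 lower, where 4.23% of all genes were called higher. Of the 42, 11 had an unadjusted p under 0.05, for which no share of all genes is given. The median log2 change was 0.25 over the 42 (0.13 when scaled by library size only) and 0.44 over the H2B genes, and classes were not tested against each other. The H2B sum was 780.3 to 1123 CPM at 0 h, 1280 to 1462 at 16 h and 1218 to 1509 at 96 h, so neither later group overlapped 0 h.
H2BC5 (26158122 to 26171349, plus strand, 3 counted intervals), an H2B gene also known to give polyadenylated RNA in differentiating cells, stood at 78.2, 100.2, 73.7 and 57.5 CPM at 0 h and at 119.6, 136, 168 and 136 at 16 h. It did not overlap between groups and rose by 0.84 ± 0.223 (SE) on the log2 scale, with an edgeR adjusted p of 0.0127. H3C1 (26020451 to 26020958, plus strand) stood at 93.1, 91.2, 71.7 and 70.8 CPM at 0 h and at 106.5, 99.9, 129.9 and 119.7 at 16 h. It rose by 0.47 ± 0.139 (SE), again without overlap, with an edgeR adjusted p of 0.0257.

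At 96 h against 0 h in the parental line, 2 of 42 genes were higher and 0 lower, where 3.94% of all genes were called higher. H2BC5 stood at 171.9, 116, 145 and 128 CPM, a log2 change of 0.85 ± 0.223 (SE) (edgeR adjusted p of 0.0123). H2BC12, the leading H2B gene, stood at 296, 288, 236 and 220.1 CPM at 0 h and at 404, 440, 378 and 324 at 96 h, a log2 change of 0.57 ± 0.166 (SE) (edgeR adjusted p of 0.0251). Neither gene overlapped between groups. Without replicate 4 of the parental line at 0 h, with 3770140 counts, 0 of the 42 genes were called at either time, but without all 6 libraries under 5000000 counts 4 were called at each. With other single libraries left out, H3C1 at 16 h lost its call without replicate 3 at 0 h or replicate 3 or 4 at 16 h (edgeR adjusted p of 0.0886, 0.0853 and 0.107). H2BC12 at 96 h lost its call without replicate 3 at 0 h or replicate 1 or 2 at 96 h (edgeR adjusted p of 0.075, 0.0558 and 0.0678). H2BC5 at 96 h lost its call without replicate 1 at 96 h (edgeR adjusted p of 0.0531). With a GC and length trend over genes taken out, 22 of the 42 genes were called at 16 h and 5 at 96 h, all higher. The share of all genes called with that trend taken out is not given here. Between 16 and 96 h, 0 of 42 were called by edgeR, against 0.265% of all genes, 1 had an unadjusted p under 0.05, and DESeq2 and limma voom called 0.

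Beside these changes, 0 of 38 S phase genes were called in the parental line at 16 h by edgeR, with 8 at an unadjusted p under 0.05, 2 called by DESeq2 and 8 by limma voom. CDKN1A had a mean of 78.5 CPM before auxin and 38.4 CPM after 16 h, a log2 change of -1.03 ± 0.175 (SE). Of 15 replication-dependent histone genes outside chromosome 6, edgeR called H2BC18, at 0.58 ± 0.19 (SE), DESeq2 called 0 and limma voom 4. Of 20 genes of histone transcription and 3′ processing, edgeR called 4, all higher, among them CSTF2T (0.40 ± 0.123) and CPSF2 (0.33 ± 0.105), cleavage factors of pre-mRNA 3′ ends. For this list DESeq2 called 0 and limma voom 7, and 909 of all 21484 genes were called higher by edgeR.

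In LAC, 6 genes were higher at 96 h than at 0 h and 0 lower, where 6.74% of all genes were called higher. They were 4 H2B genes (H2BC5, H2BC6, H2BC9, H2BC11) and the near-identical H4C11 and H4C12, and the H2B median log2 change was 0.46 against 0.17 over all 42. H2BC6 stood at 13.0, 44.6, 28.6 and 30.8 CPM at 0 h and at 54.0, 64.7, 47.6 and 54.6 at 96 h. It did not overlap between times and rose by 0.85 ± 0.215 (SE) on the log2 scale, with an edgeR adjusted p of 0.00463. The same 0 h libraries gave the lower H2BC6 level against the parental line above, so these results are not independent.
H2BC5 stood at 39.2, 127.2, 113.9 and 92.8 CPM at 0 h and at 188.5, 178, 143 and 135 at 96 h, a log2 change of 0.77 ± 0.22 (SE) (edgeR adjusted p of 0.0127). H2BC11 (27125897 to 27132795, minus strand) stood at 39.8, 118.6, 84.0 and 85.1 CPM at 0 h and at 128, 168, 133 and 121.7 at 96 h, a log2 change of 0.73 ± 0.221 (SE) (edgeR adjusted p of 0.0188). For both genes every 96 h library lay above every 0 h library, and replicate 1 at 0 h was the lowest.

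Replicate 1 of LAC at 0 h is the library with 38160 CPM of short RNA and 604 CPM of H2B. Without it, 4 of the 42 genes were called at 96 h, and H2BC6 remained so at a log2 change of 0.66 (edgeR adjusted p of 0.0304). H2BC5 (0.55), H2BC11 (0.53) and H2BC9 (0.35) no longer passed the test, with edgeR adjusted p of 0.0843, 0.121 and 0.217. With single libraries left out, H2BC9 kept its call only without replicate 2 at 0 h (edgeR adjusted p of 0.00404). Without replicate 3 at 0 h, H4C11 and H4C12 lost theirs (edgeR adjusted p of 0.123 and 0.1). Both were also lost without replicate 3 at 96 h (edgeR adjusted p of 0.0781 and 0.0704). Without replicate 2 at 96 h, H4C11 and H2BC11 were lost (edgeR adjusted p of 0.0867 and 0.0891). Leaving out replicate 2 of LAC at 0 h instead gave 13 called genes, and a fit of the compared groups alone called 0. At 16 h against 0 h, 0 of 42 genes were called by edgeR, against 1.78% of all genes. Of the 42, 8 had an unadjusted p under 0.05, while DESeq2 called 0 and limma voom 8. No share of all genes is given for these counts.
Between 16 and 96 h in LAC, 0 of 42 were called by edgeR and by DESeq2, against 5.27% of all genes, with 1 at an unadjusted p under 0.05 and 1 called by limma voom. Of 38 S phase genes in LAC at 96 h against 0 h, 2 were higher, 11 were lower and the others were not called, with a list median of -0.12, where 1857 of the 21484 genes tested were called lower. TK1 was among the lower genes at -0.99 ± 0.143 (SE). H2AX, the replacement H2A that marks DNA breaks when phosphorylated, fell by 0.89 ± 0.282 (SE) on the log2 scale and the linker histone H1-10 changed by -1.39 ± 0.387.

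In LB1, none of the 42 genes was called after auxin. At 16 h, 1.5% of all genes were called in either direction, and at 96 h 3.17%, while edgeR called 0 of the 42 at both times. At each time 1 of the 42 had an unadjusted p under 0.05. DESeq2 called 0 at both times, and limma voom called 0 at 16 h and 1 at 96 h. The median log2 change was 0.02 at 16 h and -0.03 at 96 h, and both changed sign when scaled by library size only (-0.09 and 0.05).
From 16 to 96 h, 20.4% of all genes were called in LB1 but 0 of the 42 by edgeR, with 2 at an unadjusted p under 0.05, 0 by DESeq2 and 2 by limma voom. Over the same interval 17 of 38 S phase genes and 10 of 22 G2/M genes fell and 0 of either list rose, and CDC20 (an activator of the anaphase-promoting complex) changed by -0.88 ± 0.109 (SE) on the log2 scale. The histone genes had a median log2 change of -0.09 there, and 0.10 when scaled by library size only. With the GC and length trend taken out, 11 of the 42 were called, all lower.

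In LB2, 3 genes were lower at 96 h than at 0 h and 0 higher, where 1.6% of all genes were called lower. Of the 42, 11 had an unadjusted p under 0.05, for which no share of all genes is given. The median log2 change was -0.21 over the 42, -0.44 over H4, -0.38 over H3 and 0.07 over H2B. H3C1 stood at 102.6, 139.9, 109.8 and 133.8 CPM at 0 h and at 82.6, 67.6 and 76.6 at 96 h. It did not overlap between times and fell by 0.69 ± 0.152 (SE) on the log2 scale, with an edgeR adjusted p of 0.00348.
H4C3 (26103933 to 26104337, plus strand, 1 exon) stood at 224.5, 178, 176 and 236 CPM at 0 h and at 118.3, 94.7 and 85.0 at 96 h, a log2 change of -1.03 ± 0.246 (SE) (edgeR adjusted p of 0.00831). H4C8 (26277609 to 26285638, minus strand, 6 counted intervals) stood at 181, 197, 167 and 195 CPM at 0 h and at 140.6, 117.5 and 116 at 96 h, a log2 change of -0.57 ± 0.17 (SE) (edgeR adjusted p of 0.046). Both were without overlap between times. With single libraries left out, H4C8 kept its call only without replicate 1 or 3 at 0 h (edgeR adjusted p of 0.0476 for each). Without replicate 3 at 96 h its edgeR adjusted p was 0.217.

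Against the parental line H4C3 in LB2 at 96 h was low, with a mean of 99.3 CPM beside 151.1, 187, 141 and 143 in the parental libraries at 96 h. H2AC14 in LB2 at 96 h, at 202.7, 184 and 191 CPM, still lay above the parental 96 h libraries, at 111, 139.6, 151 and 134. Both genes are given because they were called in other comparisons. LB2 and the parental line were not tested against each other at 96 h. Without replicate 2 of LB2 at 96 h, 0 of the 42 genes were called against 0 h. After removal of the GC and length trend, the H3C1 call was lost, 2 genes were called higher and 4 lower, and the median log2 change was 0.02.
Between 16 and 96 h in LB2, H4C3 was the single gene called lower, where 1.45% of all genes were. It stood at 106, 184, 424 and 156 CPM at 16 h, a log2 change of -1.01 ± 0.252 (SE) (edgeR adjusted p of 0.0199), and was not called without replicate 2 or 3 at either time. Without replicate 3 at 16 h, the library at 424 CPM, the change was -0.56. At 16 h against 0 h, 0 of 42 were called by edgeR and by DESeq2, against 1.81% of all genes, with 3 at an unadjusted p under 0.05 and 2 called by limma voom. At 96 h against 0 h in LB2, TK1 was the single S phase gene of 38 called, at -0.67 ± 0.156 (SE), and the list median was -0.02. Of 22 G2/M genes 4 were lower, among them CCNB1 (cyclin B) at -0.54 ± 0.136 (SE), and of 10 replacement histone genes H2AZ1 alone was called, at -0.66 ± 0.17 (SE).

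**Figure D4:**
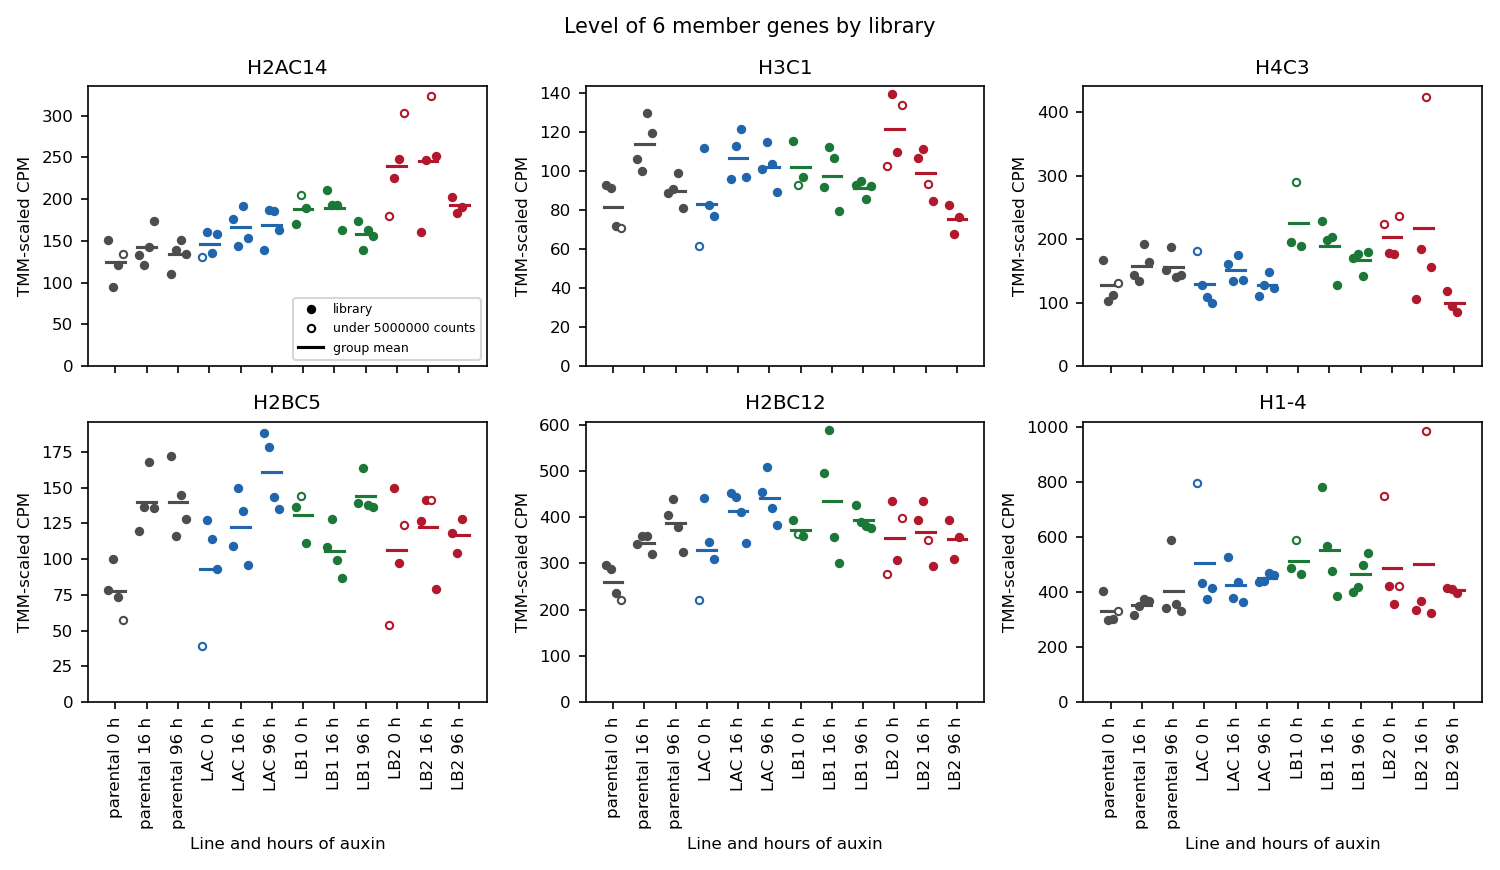
TMM-scaled CPM of 6 histone genes in each library by line and hours of auxin, with group means as lines and open points for libraries under 5000000 counts. H2AC14 is highest in LB2 at 0 and 16 h, H4C3 and H3C1 are lowest in LB2 at 96 h among the LB2 groups, and H2BC5 in the parental line is lowest at 0 h, at 57.5 to 100.2.

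The change of each tagged line was then set against the change of the parental line over the same time, which subtracts the parental change. No histone gene was called by edgeR in any of these 6 comparisons. For LAC the background was 0.116% of all genes at 16 h and 7.4% at 96 h, with 0 of the 42 at an unadjusted p under 0.05 and 0 by DESeq2 and limma voom at both times. For LB1 it was 0.0279% at 16 h, with 8 of the 42 at an unadjusted p under 0.05, and 1.04% at 96 h, with 6. In LB1, DESeq2 called 0 at both times and limma voom 1 at 16 h and 0 at 96 h.
For LB2 it was 0.00465% at 16 h, with 3 of the 42 at an unadjusted p under 0.05 and 0 by DESeq2 and limma voom. At 96 h 0.368% of all genes were called for LB2, and 15 of the 42 had an unadjusted p under 0.05. DESeq2 called 2 and limma voom 5. The median log2 difference there was -0.47 (-0.30 with the GC and length trend removed), and the lowest edgeR adjusted p was 0.0532, for H3C1. The difference for LB2 at 96 h uses the same 0 h libraries as the comparison of LB2 with the parental line at 0 h, so the low values here and the high values there are not independent.

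**Figure D5:**
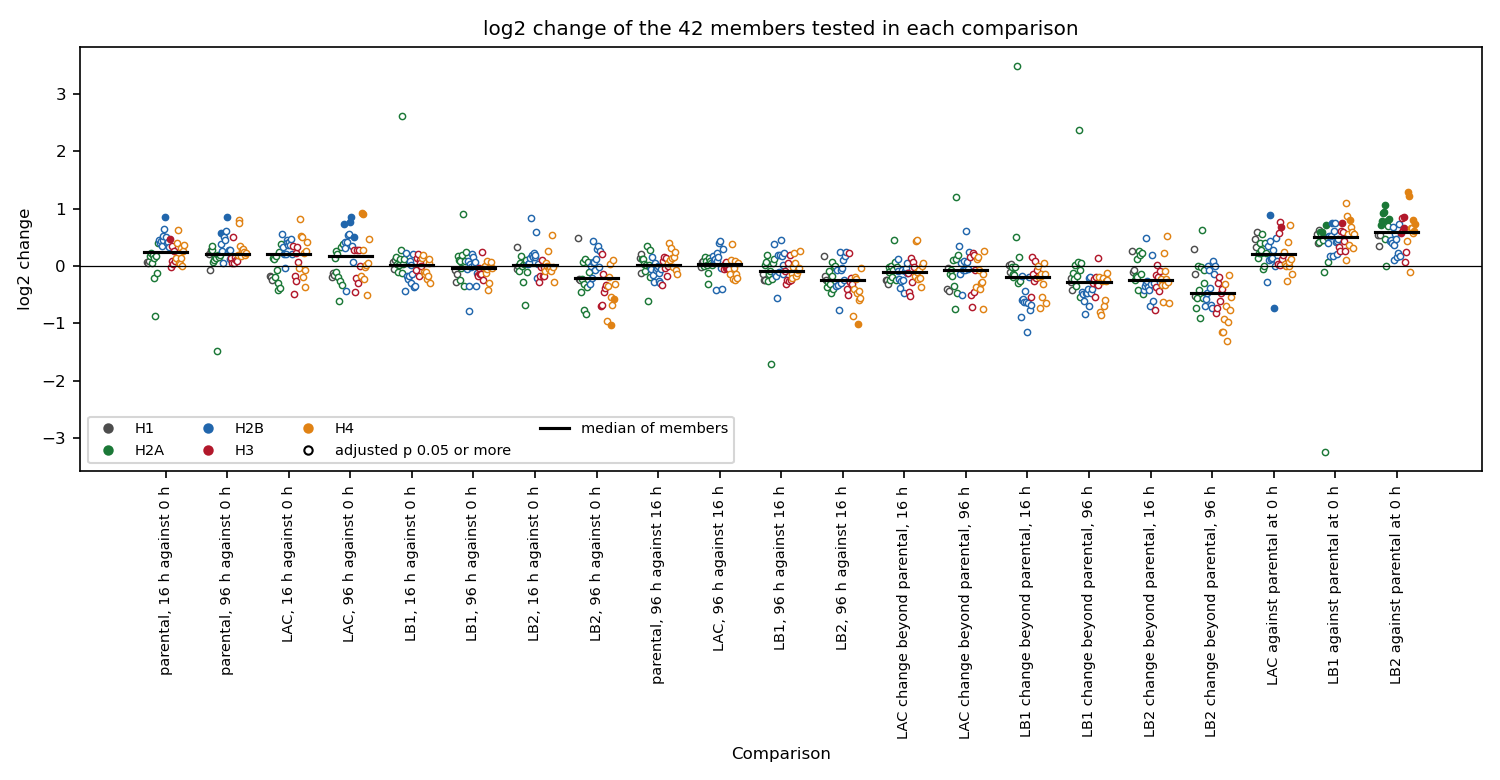
Log2 change of the 42 tested genes in each of 21 comparisons, coloured by class, with filled points for an edgeR adjusted p under 0.05 and a bar at the median of the genes. The medians are highest for LB2 (0.60) and LB1 (0.51) against the parental line at 0 h and lowest for the LB2 change beyond parental at 96 h (-0.47); the points beyond 2 in either direction are H2AC17, a gene with a mean of 0.419 CPM.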

How the data were processed

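Total RNA was depleted of ribosomal RNA, and stranded paired-end libraries were sequenced on a NextSeq2000, per the labels' protocols. The authors deposited raw counts per gene, made with featureCounts 1.6.4 in an nf-core/rnaseq 1.4.2 environment, per the file headers. The submitters' processing notes also name STAR 2.7.10a, SAMtools 1.10, deepTools 3.4.5, DESeq2 1.40.2 and GRCh38. Strand setting and multi-mapping are not given in the sources used here. All 46 columns were matched by name, and 0 were unused. A gene broken over 3 lines was left out. Symbols were found for 42341 genes.

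Counts were fitted with edgeR 4.0.16 (R 4.3.3) by quasi-likelihood with TMM scaling, 1 coefficient per group over all 12 groups and filterByExpr, which left 21484 genes. P-values were two-sided and adjusted by Benjamini-Hochberg over these genes in each of 21 comparisons. Shares of all genes called are for this fit and its adjusted p. None is given for unadjusted p, DESeq2, limma voom or other settings. Depth was 479446 to 37309421 counts. The procedure was tested on simulated data. Per-library values are given for the leading gene of each class per kilobase and for up to 3 called genes per direction with the lowest adjusted p and a mean of at least 1 CPM, and up to 4 genes per list are named by lowest adjusted p. The histone genes and lists were chosen with earlier results of these data known. Genes outside this rule that are named were chosen after their values were seen. Other settings tried were scaling by RLE or by library size alone, no filter, the replicate block, GC and length trend removal, leaving out libraries, limma 3.58.1 voom with sample weights, DESeq2 1.42.0 and fits of the compared groups alone. Where the same number marks replicates, the correlation of deviations over 8568 genes was computed for each pair. In LAC r ran from 0.12 to 0.69 at 16 and 0 h, and from 0.08 to 0.3 at 96 and 16 h. In the other comparisons of groups the lowest r was negative. In LAC at 16 and 0 h, 1 of the 4 samples at 16 h correlated best with its own number at 0 h. The edgeR fit above did not pair samples, and the numbers entered only other settings. A result for 1 listed gene is not reported here.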

Additional observations from a re-analysis of the deposited data

Results flagged for a closer look

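In groups of 4 libraries, the highest or lowest library was compared with the others, and it was singled out where its gap to the nearest, divided by the group's range, exceeded Dixon's critical value. Of 310 combinations of group and measure tested, 21 met this. Chance flags about 1 in 20 independent combinations, but genes measured in the same libraries are not independent. All 21 flags were for high values.

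Replicate 1 of the parental line at 0 h stood at 5747 CPM for the sum of all histone genes (others 4144 to 4413), 458 for H2AC11 (others 275.5 to 306), 57.6 for H2AC15, 92.9 for H2AC4 and 157 for H4C8. Replicate 2 of that group stood at 61.0 for H2BC6 (others 46.5 to 48.3). These libraries belong to the group against which all tagged lines were compared at 0 h. Replicate 2 of the parental line at 96 h stood at 1226 for the H4 sum (others 875 to 908), 588 for H1-4, 434 for H3C2 and 62.3 for H2AC15.

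Replicate 1 of LAC at 0 h stood at 795 CPM for H1-4 (others 375 to 431.5) and 718 for H3C2 (others 351 to 395). Replicate 1 of LB2 at 0 h stood at 747 for H1-4 (others 355 to 422). Replicate 4 of LB2 at 0 h stood at 136 for H2AC4, 55.03 for H2BC15 and 63.2 for H4C9. Replicate 3 of LB2 at 16 h, the least deep library, stood at 983 for H1-4 (others 325 to 369), 150.1 for H2AC15 and 52.2 for H2BC14 (others 9.36 to 15.3). In LB1, replicate 2 stood at 8.52 for H2BC14 at 16 h and at 164 for H2BC5 at 96 h.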

How the results depend on the processing

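No called gene changed sign under any alternative, although medians near 0 did: that of LB2 at 96 h against 0 h went from -0.21 to 0.02 once the trend with GC and length was taken out and to -0.10 without the libraries under 5000000 counts. The number of histone genes called by the edgeR fit was recounted under each alternative, and settings not listed kept it within 1.5 times. Alternatives that left out libraries, took fewer groups or used no filter could test other histone genes than the 42. The share of all genes called is not given for the alternatives. The causes were not tested beyond the construction of each alternative. Under RLE scaling the number called was 1 for the parental line at 16 h against 0 h and 3 for LB1 against parental at 0 h. With library size only it was 1 for the parental line at 16 h and 1 at 96 h against 0 h, 12 for LAC at 96 h against 0 h, 1 for LB1 and 0 for LB2 at 96 h against 16 h, and at 0 h 1 for LAC and 3 for LB1 against parental. That scaling moved the median of all genes by -0.12 for the parental line at 16 h, by 0.12 for LAC at 96 h against 0 h and by -0.18 for LAC against parental at 0 h. With no low-count filter it was 7 for the parental line at both times, 2 for LAC and for LB2 at 16 h, 6 for LB2 at 96 h, 2 for LB2 at 96 h against 16 h, 1 for LB1 beyond parental at 16 h, 3 for LB2 beyond parental at 96 h, and 8, 17 and 24 for LAC, LB1 and LB2 against parental at 0 h.

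With the GC and length trend removed it was 22 and 5 for the parental line at 16 and 96 h, 7 and 11 for LAC, 4 for LB1 at 96 h, 2 and 6 for LB2, 1, 11 and 4 for LAC, LB1 and LB2 at 96 h against 16 h, 2 for LB1 and 2 for LB2 beyond parental at 96 h, and 7 for LAC and 13 for LB1 at 0 h. With the replicate block added to that trend removal it was 22 and 8 for the parental line, 14 and 14 for LAC, 3 for LB1 at 96 h, 3 and 8 for LB2, 1, 13 and 8 for LAC, LB1 and LB2 at 96 h against 16 h, 1 and 3 for LB1 and 5 for LB2 beyond parental, and 8 for LAC and 16 for LB1 at 0 h. The replicate block alone gave 5 for LB2 at 96 h, 3 at 96 h against 16 h and 2 beyond parental at 96 h. In LAC at 16 h against 0 h the block gave 0 as well. Samples of the same number were not shown to be pairs. In no comparison did every sample correlate best with its own number.

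Without the libraries under 5000000 counts it was 4 for the parental line at both times, 1 for LB1 at 96 h, 1, 2 and 2 for LAC, LB1 and LB2 at 96 h against 16 h, and 2 for LB2 beyond parental at 96 h. Limma voom called 8 and 4 in the parental line, 8 and 15 in LAC, 1 in LB1 at 96 h, 2 and 9 in LB2, 1, 2 and 9 for LAC, LB1 and LB2 at 96 h against 16 h, 1 for LB1 beyond parental at 16 h, 5 for LB2 at 96 h, and 13 for LB1 at 0 h. DESeq2 called 1 for the parental line at 16 h and 2 for LB2 beyond parental at 96 h. Fits of the compared groups alone gave 8 and 6 for the parental line, 0 for LAC, 2 for LB1 and 1 for LB2 at 96 h, 5, 2 and 0 for LAC, LB1 and LB2 at 96 h against 16 h, 2 and 2 for LB1 and 1 for LB2 beyond parental, and 0, 24 and 9 for LAC, LB1 and LB2 at 0 h. A term for replicate numbers 1 and 2 against 3 and 4, added after seeing the data, gave 5 for LB2 at 96 h, 3 at 96 h against 16 h and 1 beyond parental.

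Leaving out each replicate in turn gave 0 to 5 and 0 to 3 for the parental line at 16 and 96 h, 0 to 8 and 3 to 13 for LAC, 0 to 1 and 0 to 4 for LB2, 0 to 1 for LB2 at 96 h against 16 h and beyond parental at 96 h, and 1 to 6, 1 to 9 and 12 to 20 for LAC, LB1 and LB2 at 0 h. It gave 0 in the other comparisons. Depth limits the genes near 0, since 3 counts are 6.26 CPM in the least deep library.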

Other observations

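Within groups of 4, some histone genes split by replicate number. Replicates 1 and 2 both exceeded replicates 3 and 4 in 8 of the 10 such groups for H2BC17, in 7 for H2BC12 and H4C1, and in 6 for H2AC15 and H4C13. Both were lower in 8 groups for H2AC13 and in 6 for H1-2 and H4C12. In all, 5 of the 42 histone genes (11.9%) were higher in at least 6 groups and 3 (7.14%) lower, against 270 (1.257%) and 236 (1.098%) of the 21484 genes tested. Median levels over libraries of numbers 1 and 2 and of numbers 3 and 4 were 206 and 147 CPM for H2BC17, 66.4 and 88.9 for H2AC13, and 298 and 405 for H1-2. The labels name no batch behind these numbers. The split was noticed in the data, so it is given as a description with no test. With a term for it in the edgeR fit, no histone gene lost its call in any comparison.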
